A study of Mus musculus with 13 samples.

Results

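The 6 collagen IV chain genes, Col4a1, Col4a2, Col4a3, Col4a4, Col4a5 and Col4a6, were followed in snATAC-seq of mouse kidney, which marks for each nucleus the peaks of open chromatin that held at least 1 transposase cut fragment. Members were chosen by name, and a peak was assigned to a member if it overlapped the gene body or the 2 kb upstream of it in the mm10 build with GENCODE M21 annotation. This gave 176 of 300755 peaks for 6 of 55450 annotated genes, of which 32949 had a peak. Whole kidneys were sampled at P0 (2 samples), P21 (1 sample) and P56 (2 samples), and the 3 samples of the later ages make up the adult group. The labels name the stage and sample number, give no strain, genotype or treatment, and describe the P0 animals as 1 day old in the protocol. The methods name wild type and C57BL/6 mice for the scRNA-seq of the study and no strain for these samples.

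Collagen IV is the network-forming collagen of basement membranes, and its chains assemble inside the cell into trimers before they are secreted. The products of Col4a1 and Col4a2 form the trimer found in basement membranes throughout the body, including the embryonic glomerulus and the vessels. The products of Col4a3, Col4a4 and Col4a5 form the trimer of the mature glomerular basement membrane, which podocytes produce, and of some tubules, and mutations in these 3 genes cause Alport syndrome. The products of Col4a5 and Col4a6 form a further trimer in Bowman's capsule and around collecting ducts. The 6 genes lie as 3 head-to-head pairs, so that each pair is transcribed outward from a common start region.

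Col4a1 (ENSMUSG00000031502.11, chr8:11198423-11312826, minus strand) and Col4a2 (ENSMUSG00000031503.13, chr8:11312805-11449287, plus strand) start 21 bp apart and their annotated ends overlap by 22 bp. Col4a4 (ENSMUSG00000067158.9, chr1:82448423-82586849, minus strand) and Col4a3 (ENSMUSG00000079465.8, chr1:82586921-82722059, plus strand) start 72 bp apart with 71 bp between the genes. Col4a6 (ENSMUSG00000031273.16, chrX:141165403-141474076, minus strand) and Col4a5 (ENSMUSG00000031274.16, chrX:141475385-141689234, plus strand) start 1309 bp apart. Of the 176 peaks, 101 lay in the windows of Col4a1 and Col4a2, 42 in those of Col4a3 and Col4a4, and 33 in those of Col4a5 and Col4a6. A single peak covered both starts of Col4a1 and Col4a2 (chr8:11311401-11314350) and another both starts of Col4a3 and Col4a4 (chr1:82586552-82587641), so their openness cannot be assigned to a single gene of the pair. Col4a6 (chrX:141473695-141474150) and Col4a5 (chrX:141475122-141476345) each had a start peak of its own.

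The sequences shown are those that the results turn on: the 71 bases between Col4a4 and Col4a3, the central 300 bases of the peaks inside Col4a3, Col4a2 and Col4a1 whose highest levels were in podocytes, endothelial cells and P0 stroma, and the 250 bases upstream of Col4a5. They were read from RefSeq GRCm38.p6, the assembly of mm10, on the strand of the named gene, and capitals mark the motifs found.
Col4a4-Col4a3 interval, chr1:82586850-82586920, plus strand: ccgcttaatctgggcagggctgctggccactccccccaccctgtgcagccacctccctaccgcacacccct
Col4a3 peak 16.7 kb inside the gene, chr1:82603516-82603815, plus strand: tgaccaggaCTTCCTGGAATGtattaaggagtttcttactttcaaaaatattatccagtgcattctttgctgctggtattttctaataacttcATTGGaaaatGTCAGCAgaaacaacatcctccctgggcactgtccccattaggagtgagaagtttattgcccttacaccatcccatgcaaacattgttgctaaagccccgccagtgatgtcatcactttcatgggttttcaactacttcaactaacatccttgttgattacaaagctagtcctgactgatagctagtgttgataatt
Col4a2 peak 10.4 kb inside the gene, chr8:11323077-11323376, plus strand: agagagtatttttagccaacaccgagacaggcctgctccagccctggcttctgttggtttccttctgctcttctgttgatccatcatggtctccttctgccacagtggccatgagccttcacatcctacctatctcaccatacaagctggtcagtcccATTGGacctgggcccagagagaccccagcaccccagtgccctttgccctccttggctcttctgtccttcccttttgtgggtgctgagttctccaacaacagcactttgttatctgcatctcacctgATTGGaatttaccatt
Col4a1 peak 55.8 kb inside the gene, chr8:11256892-11257191, minus strand: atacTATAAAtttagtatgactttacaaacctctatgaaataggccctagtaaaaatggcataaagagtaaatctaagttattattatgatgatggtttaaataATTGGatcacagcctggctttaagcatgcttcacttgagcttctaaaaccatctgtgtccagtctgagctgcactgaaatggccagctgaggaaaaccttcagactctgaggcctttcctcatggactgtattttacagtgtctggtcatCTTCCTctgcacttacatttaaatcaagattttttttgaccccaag
Col4a5 upstream, chrX:141475135-141475384, plus strand: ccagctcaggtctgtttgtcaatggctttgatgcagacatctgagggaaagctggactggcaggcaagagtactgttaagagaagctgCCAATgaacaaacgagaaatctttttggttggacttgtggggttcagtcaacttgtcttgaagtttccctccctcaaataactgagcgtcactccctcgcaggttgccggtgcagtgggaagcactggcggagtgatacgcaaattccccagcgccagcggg

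The motifs searched on both strands were GGGCGG for Sp and Klf factors, CCAAT for NF-Y, TATAAA for the core promoter, TAATTA for homeodomain factors, TGTTTAC for forkhead factors, AGGAAG for Ets factors, CAAAGTCCA for Hnf4, TGCTGAC for Maf factors and GGAATG for Tead factors. The 71-base interval was 69.0% G and C and held 0 of the 9, where GGGCGG was present in 20.7% and CCAAT in 13.3% of the 71-base stretches upstream of 32851 promoters. The Col4a3 peak held 4 of the 9: AGGAAG on the minus strand, directly beside the Tead motif GGAATG in 1 run of capitals, and further along CCAAT and the Maf motif. In the central 300 bases of 300693 peaks these were found in 38.1%, 18.8%, 32.0% and 6.06%. The Col4a2 peak held CCAAT at 2 places, and the Col4a1 peak held the same motif together with the Ets motif and TATAAA, the last found in 17.4% of peak centres. The Col4a5 upstream stretch held CCAAT, as did 33.8% of the 250-base stretches upstream of promoters. These matches describe letters in a window and are not binding sites.

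The 5 samples held 3361 to 7129 nuclei with 16980853 to 43794155 open calls, and the median nucleus had 3371 to 6737 open peaks. Of the 28316 nuclei, 27652 were in the 13 main clusters as the authors named them: Podo (podocytes) and NP (the progenitors of the nephron), PCT and PST (the convoluted and straight parts of the proximal tubule), LOH (Henle's loop), DCT and CNT (the distal convoluted and connecting tubules), PC and IC (the principal and intercalated cells of the collecting duct), Endo (endothelium), Immune, and the stromal clusters Stroma1 and Stroma2. Marker lists were highest in their own cluster, with 2 exceptions: the CNT list at P0 was highest in DCT, and the NP list in adult kidney was higher in Podo (56.6 CPM, counts per-million, summed over the list) than in the cluster labelled NP (50.0, against 223 at P0). The 195 adult nuclei labelled NP are therefore given by their label only. The libraries shared 477 barcodes, 0.714 to 1.22% of the smaller library in any pair.

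Open calls were summed per sample and cell type and are given as CPM of that sum, because nuclei differed in depth by stage: the median Endo nucleus had 6852 open peaks at P0 and 2282 in adult kidney, and the median Stroma2 nucleus 7277 and 3387. The share of nuclei in which a peak is open rises with depth and could move against the CPM. Sums were tested with the quasi-likelihood test of edgeR at a Benjamini-Hochberg adjusted p of 0.05, and a change is the log2 ratio of adult to P0 with its standard error (SE). The labels do not say that the samples came from separate animals, so p-values measure only the spread between these samples. With 2 against 3 samples the smallest 2-sided exact permutation p is 0.2, so groups without overlap are a description. Clusters were drawn from the same chromatin, so p-values between cell types rank genes and are no independent test of the type. Podocytes were few, 669 nuclei at P0 and 243 in adult kidney, of which the adult samples held 39 to 157. A call is said to hold where it passed without each sample in turn. With each nucleus thinned to 1000 open peaks, which leaves far fewer calls to test, 77 of the single results that had passed did so again, 63 did not and 1 changed direction. Results too sparse to be tested after thinning are not in these counts, such as Col4a6 in the cluster labelled NP. The named peaks inside genes were chosen by their largest share of open nuclei in any type at either stage, so their level and stage difference in the type that led are a description with no test. Values of single samples follow the order first and second P0 sample, P21 sample, first and second P56 sample.

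Across the 13 cell types, the 2 genes Col4a3 and Col4a4 were more open in adult than in P0 kidney in most types, whereas Col4a1 and Col4a2 passed the test in few. Over the 71 combinations of member gene and cell type that could be tested, 28 were higher in adult kidney and 6 at P0, where 11.1% of all gene tests were higher in adult and 14.2% higher at P0. Col4a3 was higher in adult kidney in 11 of 12 types and at P0 in 0, with a median change of 1.01 (range 0.32 to 2.47). The highest change was in the cluster labelled NP, which is counted here as a type. Its own marker list fell from 223 CPM at P0 to 50.0 in adult kidney, so its 2 stages may not hold like nuclei. Col4a4 was higher in 8 of 12 types, with a median of 0.77 (-0.39 to 2.02). Col4a3 and Col4a4 share 2 peaks, the common start among them, which count in the levels of both. Col4a1 was higher in adult kidney in 3 of 13 types, with a median of 0.05 (-0.48 to 1.04), and Col4a2 in 3 with 2 higher at P0, with a median of -0.09 (-0.70 to 0.48). Col4a5 was higher in adult kidney in 2 of 9 types (median 0.12). Col4a6 was the only member with more calls at P0, 4 of 12 types against 1 (median -0.33). Over all tested genes the median change lay between -0.04 and 0.04 in each type. The counts rest on the P0 samples: without the first P0 sample 13 gene calls were higher in adult and 1 at P0, and without the second 11 and 1, since 1 P0 sample then remained. Without the first P56 sample, 10 calls were higher at P0. With thinning, 10 gene calls were higher in adult kidney and 2 at P0.

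**Figure D1:**
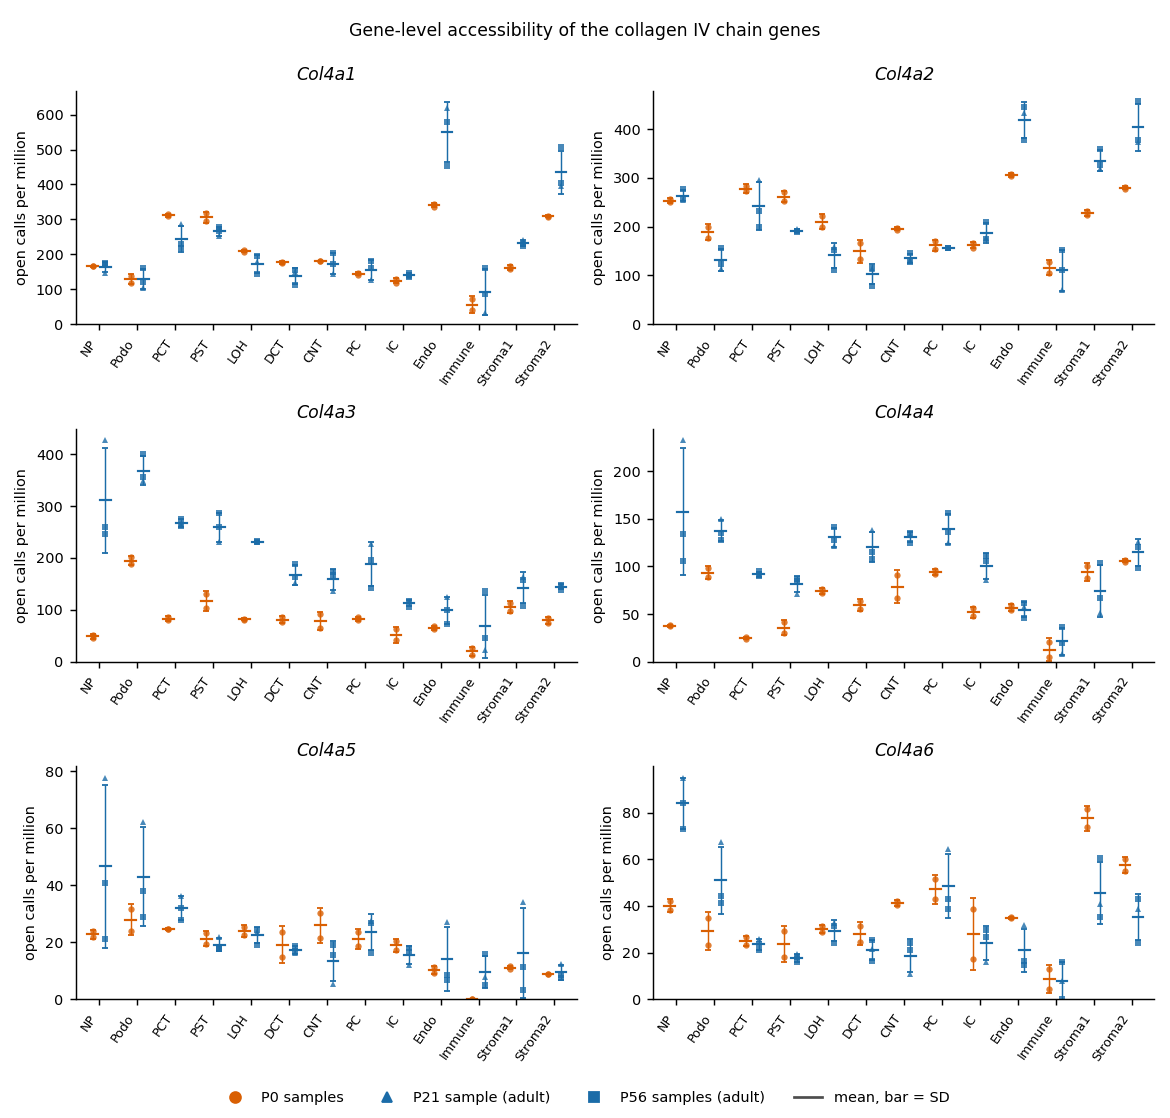
CPM over the gene body and 2 kb upstream of each collagen IV gene, by cell type, with points for the 2 P0 and 3 adult samples and their means. Podo has the highest mean for Col4a3 at P0 (195) and in adult kidney (368), while Endo stands highest for Col4a1 in adult kidney (550).

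Col4a3 encodes a chain of the mature glomerular network, and its gene had its highest mean level in podocytes at both stages. In adult kidney the cluster labelled NP was close behind, above Podo in the P21 sample (428 against 348), and the difference of Podo to it, 0.27 ± 0.21, did not pass (edgeR adjusted p = 0.494). In Podo it had 201 and 189 CPM at P0 and 348, 356 and 400 in adult kidney, so the groups did not overlap. The mean rose from 195 ± 8.34 (SD, n = 2) to 368 ± 28.1 (SD, n = 3), a log2 change of 0.94 ± 0.13 (SE) in edgeR's test (adjusted p = 6.34e-05), and the call held without any 1 sample. The 5 markers of the proximal tubule moved with it in Podo: summed, they had 64.3 to 76.0 CPM at P0, with 1 of the 5 at 0, and 118 to 227 in adult kidney, all 5 higher by mean. The DCT list had sums of 20.2 and 26.4 in Podo at P0 and 31.1 to 90.7 in adult kidney, with 1 of 2 markers higher, and the part of either list in the change was not tested. The podocyte list itself had 922 and 1001 in Podo at P0 and 1019 to 1271 in adult kidney. Of its 5 markers 4 were higher by mean, and its part was not tested. In PCT the values were 79.7 and 86.7 at P0 and 265, 261 and 276 in adult kidney, a change of 1.83 ± 0.11 (adjusted p = 4.73e-05 in edgeR). In LOH they were 80.7 and 83.2 against 231, 233 and 231, a change of 1.57 ± 0.12 (adjusted p = 1.48e-05 in edgeR). Both were separate by a wide margin and held without any 1 sample. In PCT the DCT list had sums of 95.4 and 97.7 at P0 and 151 to 200 in adult kidney, with 1 of 2 markers higher by mean. The PC list had 7.67 and 10.8 there against 19.0 to 28.9, with both higher. The podocyte list went down in PCT, from 228 and 246 to 133 to 162. The proximal tubule list itself went there from sums of 523 and 541 to 644 to 848, with all 5 markers higher by mean. The part of these lists was not tested. In LOH the proximal tubule markers went both ways, with 3 of 5 higher in adult kidney by mean and sums of 92.1 and 103 at P0 and 38.7 to 145 in adult kidney. The DCT list went there from sums of 52.8 and 53.3 to 158 to 232, with 1 of its 2 markers higher by mean, and the part of either list was not tested. The LOH list itself went in LOH from 99.1 and 125 to 440 to 527. Of its 2 markers 2 were higher, and its part was not tested. Changes also held in PC (1.12 ± 0.16), CNT (1.00 ± 0.18), Stroma2 (0.80 ± 0.13) and the cluster labelled NP (2.47 ± 0.15). In those 4 the mean of the proximal tubule list went from 88.7 to 146, from 90.2 to 114, from 64.3 to 112 and from 109 to 152. The sample ranges overlapped in each. In PC they were 88.1 to 89.2 at P0 and 68.8 to 189 in adult kidney. In the cluster labelled NP they were 108 to 110 and 97.5 to 220. All 5 markers were higher by mean in PC and Stroma2, and 4 of 5 in CNT and the cluster labelled NP. In the latter 1 marker was at 0 in all adult samples. Other lists moved more: the DCT list had sums of 42.1 and 55.4 in CNT at P0 and 236 to 383 in adult kidney, with both markers higher by mean, and in the cluster labelled NP its mean went from 29.2 to 110, with 1 of the 2 higher, and that of the LOH list from 30.4 to 96.3. The mean of the LOH list went from 18.7 to 44.9 in PC and from 15.7 to 36.7 in Stroma2, with both markers higher in each. That of the DCT list went from 26.8 to 72.1 in Stroma2, with 1 of 2 higher. The mean of the PC list in PC went from 48.1 to 150 and that of the CNT list in CNT from 73.3 to 273, with both markers higher in each. The part of these markers in the changes was not tested. In PST the change of 1.23 ± 0.17 was lost without the second P0 sample (edgeR adjusted p = 0.0882) and came to 0.58 with thinning (0.408), in DCT (0.97) without either P0 sample (up to 0.176), and in Endo (0.61) without either P0 sample or the P21 sample (up to 0.337). In IC the change of 1.02 (adjusted p = 0.0290) was lost without either P0 sample, the P21 sample or the second P56 sample. With thinning, the calls in PC (edgeR adjusted p = 0.0611), CNT (0.301), DCT (0.315), IC (0.691) and Endo (0.232) did not pass. Stroma1, with a change of 0.32 and an adjusted p of 0.150 in edgeR, was the only tested type without a call.

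The levels of Col4a4, the head-to-head partner of Col4a3, include the peak over their common start. Changes of Col4a4 without that peak were not tested. Col4a4 rose in PCT. Its values there were 26 and 23.9 at P0 and 91.8, 94.8 and 89.5 in adult kidney, a change of 2.02 ± 0.14 (edgeR adjusted p = 8.24e-05) that held without any 1 sample, as did the changes in LOH (0.89 ± 0.14) and the cluster labelled NP (1.82 ± 0.18). In Podo it had 98.5 and 88.8 against 150, 135 and 128, without overlap. That change of 0.58 ± 0.16 (edgeR adjusted p = 0.0210) was lost without either P0 sample, the P21 sample or the first P56 sample, with an adjusted p of up to 0.399. Changes in PST (1.28), PC (0.53), CNT (0.67) and DCT (0.87) passed the test in all 5 samples and each was lost without the second P0 sample, and those in PST, PC and DCT also without the first, with edgeR adjusted p of up to 0.123, 0.183, 0.206 and 0.267 in that order. With thinning, the change in DCT came to 1.55 (0.376), and the calls in Podo (0.397), PST (0.551), PC (0.482) and CNT (0.453) did not pass either. Endo (-0.00, edgeR adjusted p = 0.996), Stroma2 (0.05), IC (0.91, 0.0549) and Stroma1 (-0.39, 0.146) had no call.

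The peak over the common start of Col4a3 and Col4a4 rose with both genes in PCT and LOH. It had 9.90 and 9.57 CPM in PCT at P0 and 29.9, 36.9 and 36.1 in adult kidney, a change of 2.01 ± 0.23 (edgeR adjusted p = 8.37e-05). In LOH it had 18.2 and 17.7 against 48.0, 51.8 and 58.6, a change of 1.77 (edgeR adjusted p = 1.40e-06). Neither comparison overlapped, and both held without any 1 sample, that in LOH at 1.11 with thinning. The call in the cluster labelled NP (1.98 ± 0.31) also held. Those in PST (1.69), CNT (1.35), PC (1.08), Stroma1 (1.39), Stroma2 (0.95) and Endo (1.15) did not hold. In Stroma1 neither gene had a call, and in Endo and Stroma2 Col4a4 had none. DCT (1.12, edgeR adjusted p = 0.132), where both genes had a call, and IC (0.79, 0.678) had no call at the start. In Podo the start peak had 42.7 and 34.3 at P0 and 57.1, 52.7 and 70.1 in adult kidney. The Podo groups did not overlap, but the change of 0.62 ± 0.24 did not pass the test (edgeR adjusted p = 0.102). By share of nuclei, Podo was first at P0, with 17.7% ± 0.362 (SD, n = 2), above the range of PC (14.2% ± 1.76), which came next. In adult kidney PST (32.9% ± 15.0, n = 3), Podo (27.6% ± 14.3) and the cluster labelled NP (23.9% ± 8.31) overlapped, and Endo came last with 3.36% ± 1.11. PST nuclei were the deepest of the 13 types, with a median of 7842 open peaks in adult kidney against 3725 in Podo, and in CPM the adult order of PST and Podo was the reverse (log2 ratio -0.52).

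**Figure D2:**
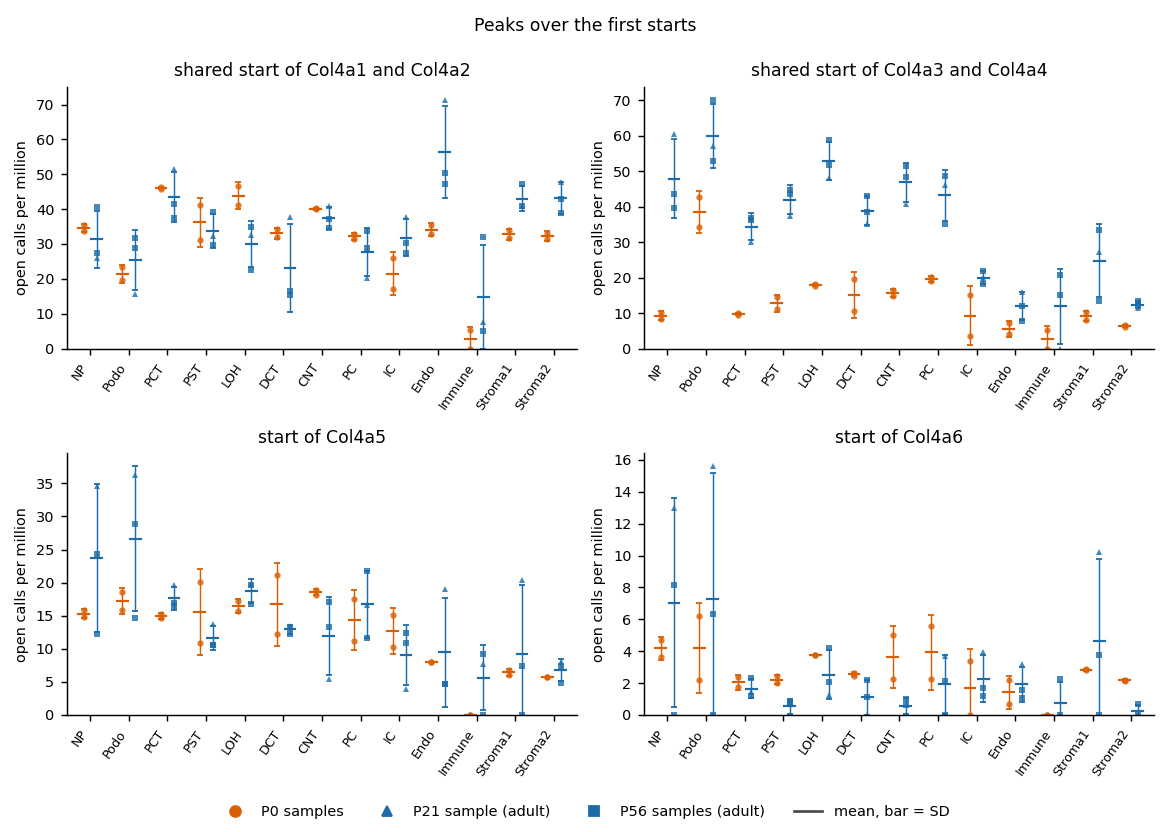
CPM in the peaks over the starts of Col4a1 and Col4a2, Col4a3 and Col4a4, Col4a5, and Col4a6, by cell type, with points for samples and the means at P0 and in adult kidney. The mean of the Col4a3 and Col4a4 start in Podo is 38.5 at P0 and 60.0 in adult kidney, above the means of the other types, and in Endo it is 5.61 and 11.9. In adult kidney the Podo samples overlap those of LOH. The difference of Podo to the adult cluster labelled NP, 0.45 ± 0.31, did not pass (edgeR adjusted p = 0.397).

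Inside Col4a3, the peak 16.7 kb downstream of the start had its highest level in podocytes, and the next types by mean were DCT (12.9) at P0 and PC (19.7) in adult kidney. It had 40.3 and 52.3 CPM in Podo at P0 and 72.6, 88.5 and 86.6 in adult kidney, against 1.01 ± 0.104 (SD, n = 2) and 3.61 ± 3.80 (SD, n = 3) in Endo. The log2 difference of Podo to Endo was 5.12 at P0 and 4.53 in adult kidney, and that of Podo to NP at P0 was 3.80. The stages did not overlap in Podo, which chose the peak, with a log2 difference of 0.83. Principal cells were also higher than PCT in this peak, by 1.78 ± 0.47 at P0, a call lost with thinning (0.95, edgeR adjusted p = 0.721), and 1.87 ± 0.34 in adult kidney.

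Other peaks inside Col4a3 were open in the tubule as well as in other types. The peak 48.0 kb inside, which also overlaps the small RNA gene n-R5s213 and so cannot be assigned to Col4a3 alone, had 9.90 and 10.8 CPM in PCT at P0 and 71.7, 58.9 and 68.5 in adult kidney. The groups were far apart, and the change of 2.88 ± 0.25 (edgeR adjusted p = 2.02e-05) held without any 1 sample. In Podo the same peak had 59.7 and 51.8 at P0 and 67.5, 61.1 and 78.4 in adult kidney, with a change of 0.28 that did not pass (edgeR adjusted p = 0.520). Calls for the peak at 48.0 kb also held in LOH (2.10), PC (2.09), Stroma2 (2.79) and the cluster labelled NP (1.49). Those in Endo (1.97) and Stroma1 (3.29) did not hold. The peak 3.5 kb inside rose in LOH from 2.63 to 16.3 (log2 change 2.86), and its means in PCT were 14.6 and 38.7. The peak 31.5 kb inside rose in PCT by 1.29, to 42.6, and in LOH by 1.37, and the 3 calls held without any 1 sample. With thinning the change at 31.5 kb came to 0.26 in LOH (edgeR adjusted p = 0.717) and 0.93 in PCT (0.0725), and neither passed. In Podo the peak at 3.5 kb went from 16.7 to 37.4, a call (edgeR adjusted p = 0.0242) that was lost without each of the 5 samples in turn (up to 0.343). The peak 25.6 kb inside Col4a3 had its highest share in P0 Stroma1, where it went from 33.7 and 35.4 at P0 to 3.40, 3.36 and 9.32 in adult kidney, a log2 difference of -2.58. The peak 31.8 kb inside Col4a4, chosen by its share in P0 Stroma2, stood there at 30.4 at P0 and 31.5 in adult kidney. In Stroma1 it changed by -1.64 ± 0.47 (edgeR adjusted p = 0.00321), a call that did not hold. At P0 it was higher in Podo than in NP (1.60 ± 0.30) and Endo (1.67 ± 0.35).

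**Figure D3:**
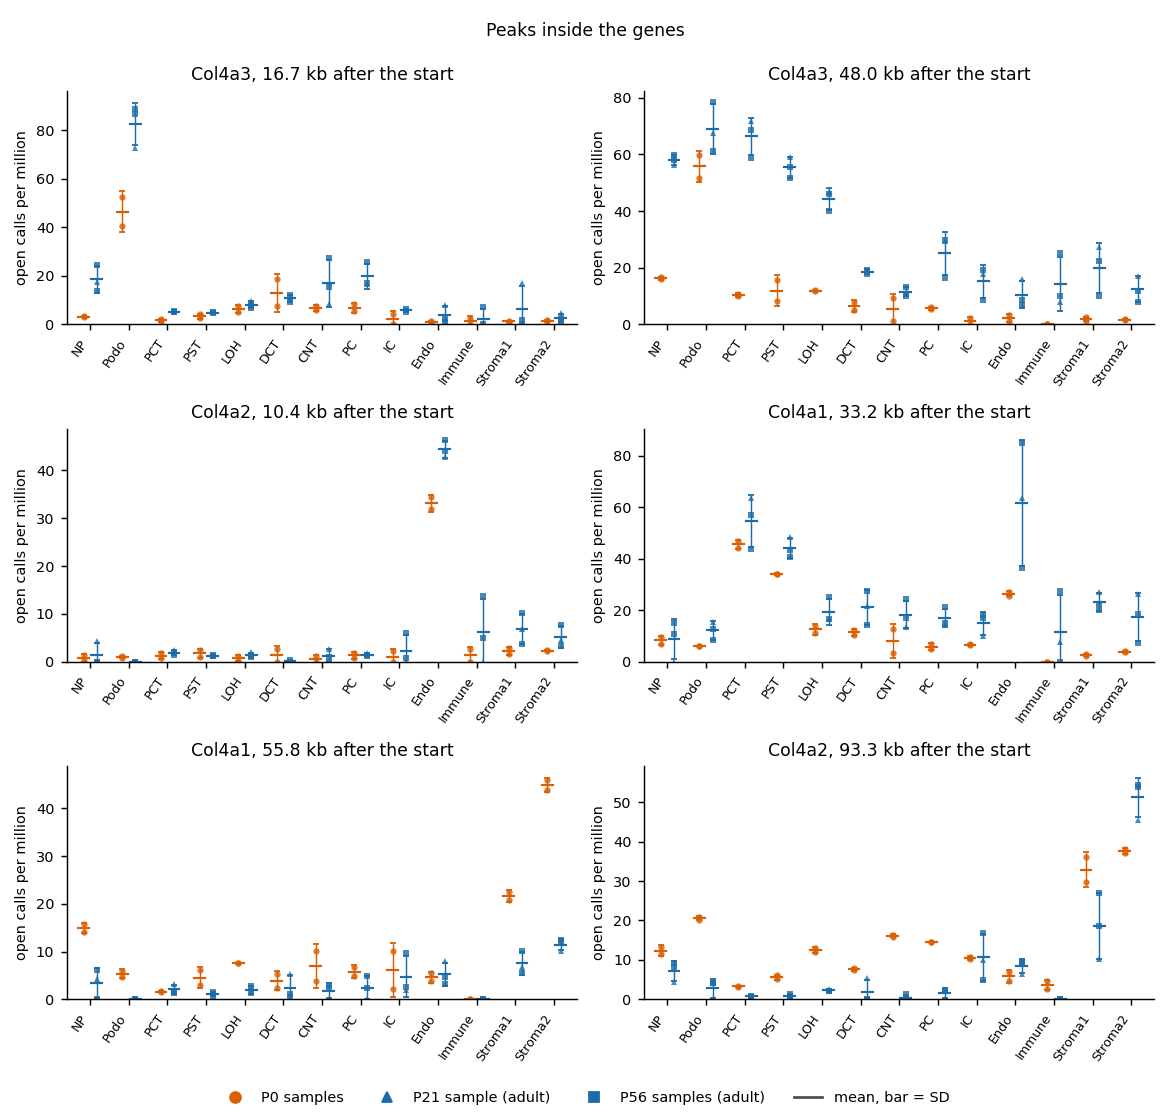
CPM in 6 peaks inside the genes, 2 in Col4a3, 2 in Col4a1 and 2 in Col4a2, by cell type, with points for samples and the means of each stage. The Col4a3 peak at 16.7 kb is highest in Podo, the Col4a2 peak at 10.4 kb in Endo, and the Col4a1 peak at 55.8 kb in Stroma2 at P0.

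Col4a1 and Col4a2, the genes of the widespread network, were most open in Endo, Stroma2 and the proximal tubule at P0 and in Endo and Stroma2 in adult kidney. Levels were also set per 100 kb of gene, which allows for gene length but not for the number of peaks called in a gene. In CPM per 100 kb, adult Endo had 473 for Col4a1, 302 for Col4a2, 72.1 for Col4a3 and 39.0 for Col4a4. Adult Podo had 111, 95.1, 268 and 98.1 in the same order. Summed, the 4 endothelial markers had 841 and 856 CPM in Endo at P0 and 1173 to 1326 in adult kidney. All 4 were higher by mean, and their part in the changes of Col4a1 and Col4a2 there was not tested. In Endo, Col4a1 had 336 and 344 CPM at P0 and 619, 454 and 578 in adult kidney. The groups did not overlap, and the change of 0.72 ± 0.14 (edgeR adjusted p = 0.00288) was lost without either P0 sample (adjusted p up to 0.0636). Col4a2 had 303 and 308 against 432, 377 and 446 in Endo, a change of 0.48 ± 0.12 (edgeR adjusted p = 0.0129) that was also lost without either P0 sample (up to 0.216). In Stroma2, Col4a1 changed by 0.44 ± 0.14 and Col4a2 by 0.47, and both calls were lost without either P0 sample (edgeR adjusted p up to 0.260 and 0.218), and that for Col4a2 with thinning (0.135), as was its call in Endo (0.241). Calls in Stroma1, 0.37 for Col4a1 and 0.40 for Col4a2, were lost without either P0 sample or the second P56 sample, and that for Col4a1 also without the P21 sample (up to 0.468 and 0.441). With thinning they came to -0.16 and 0.10. Markers of other types moved with them in Stroma1. All 4 endothelial markers were higher there in adult kidney by mean, with sums of 139 and 141 CPM at P0 and 160 to 289 in adult kidney, and all 5 proximal tubule markers, with sums of 51.3 and 68.3 and of 97.5 to 367, none of them at 0. Their part in the changes was not tested. Col4a2 was lower in adult CNT (-0.59 ± 0.15, lost without either P0 sample, up to 0.119, and with thinning, 0.260) and LOH (-0.52 ± 0.15, lost without the first P0 sample, 0.188). In Podo it had 200 and 177 at P0 and 114, 124 and 157 in adult kidney, and the difference of -0.49 was not called, at the edge of the threshold of 0.05 in edgeR's test.

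Of the 12 types in which the common start of Col4a1 and Col4a2 could be tested, it passed the stage test in Endo. There it had 35.4 and 32.9 CPM at P0 and 71.4, 47.3 and 50.4 in adult kidney, without overlap, a change of 0.74 ± 0.22 (edgeR adjusted p = 0.0137) that was lost without either P0 sample (up to 0.267), with DESeq2 (0.0767) and with thinning (0.360). In DCT the log2 difference was -1.02 ± 0.44 (edgeR adjusted p = 0.244) and in Stroma2 0.38 ± 0.18 (0.0720). The share of open Endo nuclei went from 23.8% to 16.0% in the same comparison. The leading types by share, PST (34.3%), LOH (31.5%) and PCT (30.8%) at P0 and PCT (25.6%) and PST (25.5%) in adult kidney, overlapped. In CPM the start was lower in Podo than in Endo, by -1.03 ± 0.18 at P0 (edgeR adjusted p = 3.49e-07) and -1.36 ± 0.29 in adult kidney (4.05e-05), and lower in PC than in PCT, by -0.75 ± 0.13 (1.22e-07) and -0.61 ± 0.19 (0.00304). With thinning none of these 4 passed (edgeR adjusted p = 0.278, 0.171, 0.377 and 0.254). At P0 it was also lower in Podo than in NP (-0.80 ± 0.17, edgeR adjusted p = 8.34e-05).

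Peaks inside the pair had their highest levels in different cell types. The peak 10.4 kb inside Col4a2 was highest in Endo, with a mean of at most 6.87 in any other type at either stage. It had 31.9 and 34.4 CPM at P0 and 42.8, 46.3 and 44.1 in adult kidney. The groups did not overlap, with a log2 difference of 0.51. Stroma2 had 2.32 ± 0.145 (SD, n = 2) and 5.11 ± 2.25 (SD, n = 3), a log2 difference of Endo to Stroma2 of 3.76 at P0 and 3.15 in adult kidney. In Podo it was open in 3 of 669 nuclei at P0 and in 0 of 243 adult nuclei of 3 samples, which by counting error alone allows a share of up to 1.23% of nuclei with a fragment there.

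The peak 33.2 kb inside Col4a1 lies over an annotated internal start and was open in the proximal tubule and Endo. It had 27.0 and 25.7 CPM in Endo at P0 and 63.5, 36.3 and 85.0 in adult kidney, a change of 1.27 ± 0.27 (edgeR adjusted p = 0.00106) without overlap that held without any 1 sample but not with thinning (0.89, adjusted p = 0.142). In PCT it had 45.6 at P0 and 54.8 in adult kidney, and the log2 difference of PC to PCT was -3.19 at P0 and -1.65 in adult kidney. In Stroma2 it rose from 3.85 to 17.4 (log2 change 2.00), and the call held. All 5 proximal tubule markers were also higher by mean in adult Stroma2 and Endo. Their sum in Stroma2 was 60.3 and 68.3 CPM at P0 and between 59.6 and 150 in adult kidney, with none at 0. In Endo it was 55.1 and 59.7 at P0, with 1 marker at 0, and between 56.8 and 154 in adult kidney, and their part in these changes was not tested.

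A pair of peaks inside Col4a1 was chosen by its share in P0 Stroma2. The peak 55.8 kb inside had 43.8 and 46.0 CPM in Stroma2 at P0 and 10.2, 11.7 and 12.4 in adult kidney, a log2 difference of -1.95. The peak 13.6 kb inside had 30.9 and 30.7 against 9.11, 7.45 and 8.29, a log2 difference of -1.93. Both were separate between stages in this type, which chose them. In LOH, which did not choose it, the peak at 55.8 kb changed by -1.66 ± 0.41 (edgeR adjusted p = 0.00146), and the call held. In Stroma1 it changed by -1.73 ± 0.46, a call that did not hold. PCT (0.51, edgeR adjusted p = 0.506) and Endo (0.10, 0.909) had no call for it. The peak 78.0 kb inside Col4a1, over an exon, rose in LOH from 23.4 and 25.0 to 43.5, 72.6 and 50.9 (1.40, edgeR adjusted p = 3.35e-05), and in Stroma2 from 12.7 to 31.6 (1.32), with both calls held. With thinning the change in LOH came to 0.85 and did not pass (edgeR adjusted p = 0.0605).

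Inside Col4a2, the peak at 93.3 kb had its highest share in Stroma2 and fell in Stroma1 and in the tubular types tested. It also overlaps the predicted gene Gm15419 and cannot be assigned to Col4a2 alone. In Stroma2 it had 37.1 and 38.1 CPM at P0 and 45.5, 54.3 and 53.9 in adult kidney, without overlap, a log2 difference of 0.46. The share of open Stroma2 nuclei went from 28.4% to 20.4%. In Stroma1 it had 29.8 and 36.0 against 10.2, 26.9 and 18.6, also without overlap, a change of -0.93 ± 0.31 (edgeR adjusted p = 0.0111) that was lost without the second P0, the P21 or the second P56 sample (up to 0.154). In CNT it was open in 27 of 236 nuclei at P0 and in 2 of 643 in adult kidney, a decrease that passed edgeR's test (adjusted p = 0.000205). It fell in PC from 14.6 to 1.48 (-3.06) and in LOH from 12.4 to 2.24 (-2.29), and the 3 calls held without any 1 sample, whereas that in PCT (-2.01) was lost without either P0 sample (edgeR adjusted p up to 0.0852). In Podo it went from 20.6 to 2.78 and was too sparse to be tested. The peak 15.1 kb inside Col4a2 had 36.7 and 37.9 in NP at P0 and 13, 21.3 and 16.3 in the adult cluster of that label, a log2 difference of -1.46 in the type that chose it.

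Counted over peaks, 377 combinations of peak and cell type were tested, of which 119 were higher in adult kidney and 54 at P0, beside 16.0% and 18.0% of all peak tests. For Col4a3 and Col4a4 the counts were 65 and 8 of 115 with a median log2 change of 1.23, for Col4a1 and Col4a2 53 and 44 of 243 with a median of -0.07, and for Col4a5 and Col4a6 1 and 2 of 19. Only peaks with enough open calls entered these tests, so the counts describe the open peaks and not all 176. In PCT 92 peaks were tested, with 22 higher in adult and 11 at P0 (16.3% and 17.6% of all PCT peaks), and 16 of those 22 were in Col4a3 and Col4a4. In Stroma2, 26 and 8 of 60 were called (23.7% and 26.5%), and in Endo 21 and 4 of 54 (14.8% and 16.6%). In Podo only 7 of the 176 peaks could be tested, with 2 higher in adult and 0 at P0 (6.07% and 3.52%). Without the first P0 sample, 56 peak calls over all types were higher in adult and 28 at P0, and without the second 69 and 26. With thinning, 18 were higher in adult and 8 at P0.

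**Figure D4:**
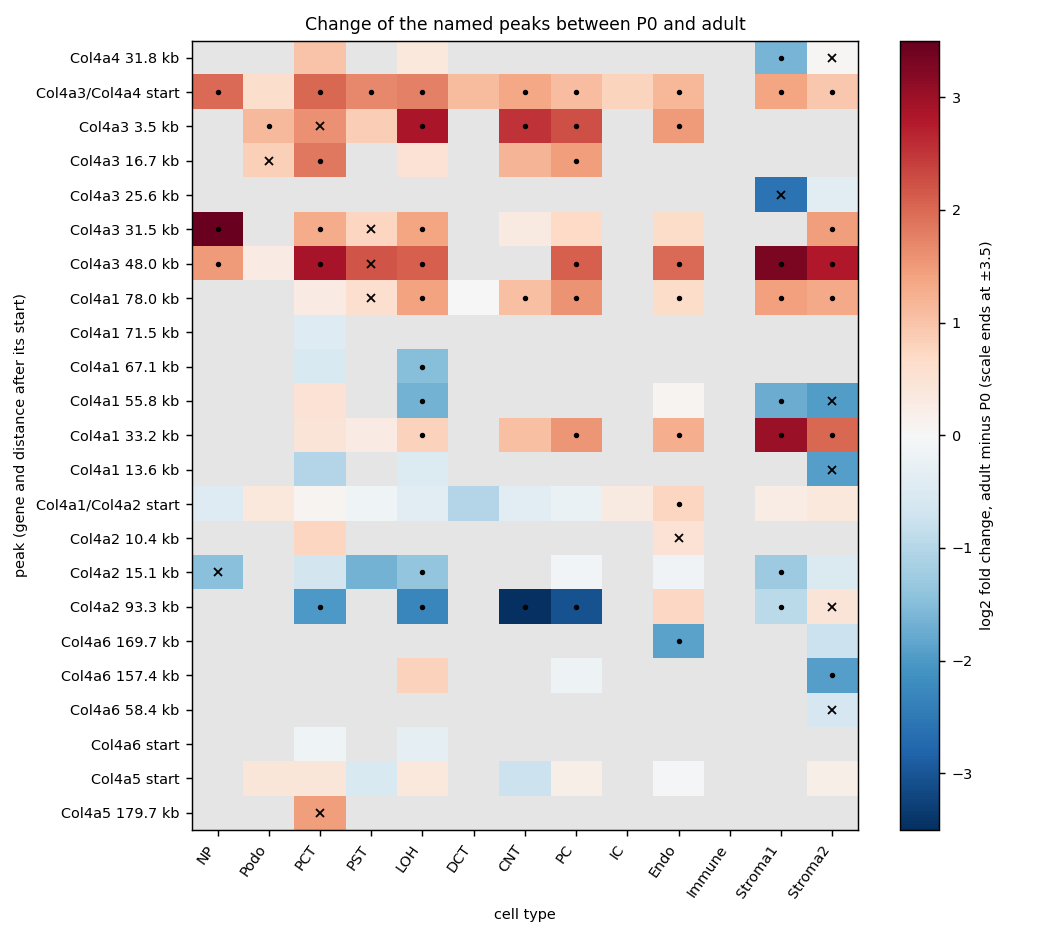
Log2 change from P0 to adult kidney of the named peaks (rows, by gene and distance in kb) in each cell type (columns), with dots on changes that passed edgeR's test, crosses where the share in that type chose the peak, so that no test is shown, and grey for combinations not tested. Col4a3 and Col4a4 rows are mostly positive, as for the peak at 48.0 kb in PCT (2.88), and rows of Col4a1 and Col4a2 hold both signs.

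Col4a5 and Col4a6, on the X chromosome, had few and low peaks. The labels give no sex of the animals, so levels of these genes by sample, and changes between stages, could not be set against it. Their windows held 7 and 28 peaks, 3.24 and 9.01 per 100 kb, against 40.4 and 41.2 for Col4a1 and Col4a2 and 16.8 and 15.0 for Col4a3 and Col4a4. The highest share of open nuclei in any peak and type was 14.4% for this pair, against 34.3% for Col4a1 and Col4a2 and 42.5% for Col4a3 and Col4a4. Col4a5 had 31.8 and 24.0 CPM in Podo at P0 and 62.3, 37.9 and 28.9 in adult kidney, where the P21 sample was highest and the groups overlapped. Its start peak had 18.6 and 15.8 in Podo against 36.3, 14.7 and 28.9, also with overlap (log2 change 0.43, edgeR adjusted p = 0.604), and had no stage call in the 8 types tested. Calls for the whole gene in PCT (0.51, edgeR adjusted p = 0.0346) and the cluster labelled NP (0.78, 0.0277) were each lost without either P0 sample or the P21 sample, and that in PCT with thinning (0.337).

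Col4a6 was lower in adult stroma. In Stroma1 it had 73.7 and 81.4 CPM at P0 and 40.8, 60.5 and 35.4 in adult kidney, without overlap, a change of -0.98 ± 0.21 (edgeR adjusted p = 0.00110) that was lost without the second P0 or the second P56 sample (up to 0.0958). The changes in Stroma2 (-0.75 ± 0.20), Endo (-0.87 ± 0.25) and CNT (-1.05 ± 0.29) were each lost without either P0 sample (edgeR adjusted p up to 0.139, 0.244 and 0.153), and that in Endo with thinning (0.223). The call in the other direction, in the cluster labelled NP (0.90 ± 0.20, from 40.2 to 84.1), held without any 1 sample. The list of 4 stromal markers had sums of 279 and 284 CPM in Stroma1 at P0 and 112 to 183 in adult kidney, with 0 higher by mean. In Stroma2 its sums were 285 and 286 against 292 to 342, with 1 of 4 higher. The part of these markers in the changes of Col4a6 was not tested. In the collecting duct, where its product is found, Col4a6 had 51.5 and 42.8 in PC at P0 and 64.4, 38.5 and 42.9 in adult kidney, with overlap. The peak 157 kb inside Col4a6 had 10.1 and 8.63 in PC against 16.6, 6.99 and 6.33. The log2 difference of PC to PCT in this peak was 3.49 at P0 and 3.53 in adult kidney. The start peak of Col4a6 was open in at most 3.81% of nuclei (adult cluster labelled NP) and had no stage call in the 2 types tested, PCT and LOH.

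Between podocytes and endothelial cells, which face each other across the glomerular basement membrane, the pairs split at both stages, although Endo here holds all kidney endothelium. At P0 all 6 genes differed (41.8% of all genes did): Podo was lower in Col4a1 (-1.67 ± 0.08), Col4a2 (-0.95 ± 0.07) and Col4a6 (-0.54 ± 0.16) and higher in Col4a3 (1.36 ± 0.09), Col4a4 (0.49 ± 0.11) and Col4a5 (1.18 ± 0.23). With thinning the calls for Col4a5 (edgeR adjusted p = 0.180) and Col4a6 (0.513) did not pass. In adult kidney all 6 differed again (27.8% of all genes). Podo was lower in Col4a1 (-2.23 ± 0.22, edgeR adjusted p = 3.54e-11) and Col4a2 (-1.81 ± 0.19, 2.49e-10) and higher in Col4a3 (1.79 ± 0.21, 3.27e-09) and Col4a4 (1.16 ± 0.21, 3.05e-05), and these 4 held without any 1 sample, with 1.87 for Col4a4 after thinning. Podo was also higher in Col4a5 (1.71 ± 0.42) and Col4a6 (1.22 ± 0.33), and both calls were lost without the first P56 sample (adjusted p = 0.0723 and 0.0734), and Col4a6 came to 0.79 with thinning (0.478). Of 115 member peaks tested at P0, 15 were higher in Podo and 45 in Endo (13.1% and 19.0% of all peaks), and of 62 in adult kidney 8 and 22 (10.2% and 17.6%), which over both directions came to 8 and 4 with thinning. All 21 calls of Col4a1 and Col4a2 peaks in adult kidney were higher in Endo.

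The stage changes of the 2 types were then compared directly. Of the 6 genes, 2 changed differently in Podo and Endo, beside 3.59% of 27681 genes. For Col4a2 the change in Podo minus that in Endo was -0.99 ± 0.22 (edgeR adjusted p = 0.00379), which was lost without either P0 sample (up to 0.221) and with thinning (-1.16, 0.0860). For Col4a6 it was 1.65 ± 0.38 (edgeR adjusted p = 0.00444), lost without the second P0 or the first P56 sample (up to 0.163) and with thinning (1.16, 0.627). The differences of Col4a1 (-0.68, edgeR adjusted p = 0.131), Col4a3 (0.33, 0.542), Col4a4 (0.54, 0.229) and Col4a5 (0.42, 0.715) did not pass.

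Podocytes arise from nephron progenitors, and at P0 5 of the 6 genes differed between them (38.0% of all genes did). Podo was higher in Col4a3 (1.84 ± 0.08) and Col4a4 (1.14 ± 0.10) and lower in Col4a1 (-0.56 ± 0.08), Col4a2 (-0.60 ± 0.07) and Col4a6 (-0.66 ± 0.15, lost with thinning at -0.39, edgeR adjusted p = 0.546). Of 115 peaks, 14 were higher in Podo and 10 in NP (8.14% and 12.1% of all peaks), a count over both directions that came to 4 with thinning and 39 with Fisher's exact test over pooled nuclei, and 10 of the 27 tested in Col4a3 and Col4a4 were higher in Podo with 0 lower. Here and below, Fisher's test takes each nucleus as a replicate and compares shares without scaling for depth. Its counts therefore do not measure the spread between samples. Against the adult cluster labelled NP, only Col4a2 of the 6 passed the test (-1.04 ± 0.22, edgeR adjusted p = 0.000724), where 12.0% of all genes did. In that comparison 2 of 62 peaks were higher in Podo and 4 lower (6.19% and 5.47%), and the count over both directions was 2 without either P56 sample or with no filter, 3 with at least 50 nuclei per sum and 1 with thinning.

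Between endothelial and Stroma2 nuclei at P0 the log2 differences of the Col4a1 and Col4a2 genes were 0.09 ± 0.05 and 0.07 ± 0.05 and did not pass, while 3 of the 6 genes differed, close to the share of all genes (53.0%). Endo was lower in Col4a4 (-0.98 ± 0.07), Col4a6 (-0.77 ± 0.09) and Col4a3 (-0.36 ± 0.08, lost with thinning, edgeR adjusted p = 0.164). In adult kidney Col4a4, Col4a3 and Col4a6 were lower in Endo (35.3% of all genes differed), with -1.05 ± 0.16 for Col4a4 (edgeR adjusted p = 1.27e-06), and the calls for Col4a3 (-0.58) and Col4a6 (-0.91) were lost without the first P56 sample (adjusted p up to 0.0851 and 0.371), that for Col4a3 also without the second, and neither passed with thinning (0.134 and 0.112). The peaks differed in both directions, with 30 higher in Endo and 34 in Stroma2 of 115 at P0 (19.1% and 24.1% of all peaks) and 15 and 17 of 62 in adult kidney (14.7% and 15.0%). Over both directions these came to 12 and 3 with thinning, and the adult count of 32 to 61 with Fisher's exact test over pooled nuclei. The peaks at 10.4 and 93.3 kb in Col4a2 were on opposite sides, the second with a log2 difference of Endo to Stroma2 of -2.78 at P0 and -2.54 in adult kidney.

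Principal cells and PCT differed at P0 in 4 of 6 genes (52.5% of all genes did), lower in PC for Col4a1 (-1.17 ± 0.07) and Col4a2 (-0.85 ± 0.07) and higher for Col4a4 (1.85 ± 0.11) and Col4a6 (0.85 ± 0.13, lost with thinning, edgeR adjusted p = 0.298). In adult kidney 5 differed (48.0% of all genes), with Col4a1 (-0.81 ± 0.17), Col4a2 (-0.79 ± 0.14) and Col4a3 (-0.70 ± 0.16) lower and Col4a6 (0.82 ± 0.20) higher in PC, and the call for Col4a4 (0.42 ± 0.13) was lost without the first P56 sample (edgeR adjusted p = 0.143). Of the peaks, 18 were higher in PC and 35 in PCT of 115 at P0 (18.6% and 20.4%), and 7 and 17 of 62 in adult kidney (28.7% and 25.2%). The adult count of 24 came to 39 with at least 50 nuclei per sum, 49 with Fisher's exact test over pooled nuclei, 62 with no filter and 4 with thinning, and that at P0 also to 4 with thinning.

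For correlations, levels were log2 of CPM plus 1, averaged over samples for each of 13 cell types and 2 stages. Over these 26 means, Pearson r was 0.83 for Col4a1 and Col4a2, 0.78 for Col4a3 and Col4a4 and 0.49 for Col4a5 and Col4a6. The genes of a pair share 3, 2 and 2 peaks in that order, which enter both levels. Of genes in different pairs, which share none, Col4a3 and Col4a5 had 0.67, Col4a4 and Col4a6 0.65, and Col4a2 and Col4a3 0.05. These describe means that share libraries and depth. Among 28103 genes, those most like each member were Adamts1 and Sema6a for Col4a1 (0.88 and 0.85), 4930549C15Rik and Gm49108 for Col4a2 (0.89 for both), Igfbp7 and P3h2 for Col4a3 (0.88 and 0.87), 2310014F06Rik and Gm24372 for Col4a4 (0.86 and 0.83), Tead1, Rassf10 and Cadm4 for Col4a5 (0.91 for all) and Gm15867 and Trip6 for Col4a6 (0.86 for both).

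The genes that process and receive collagen IV were counted over the 13 types. Of 180 tests of 15 genes for assembly and processing, 32 were higher in adult kidney and 11 at P0 (11.1% and 14.2% of all gene tests), of 179 tests of 15 other basement membrane genes 29 and 48, and of 60 tests of 5 receptors 4 and 8. In Podo, 3 assembly genes of 14 were higher in adult and 0 at P0, beside 5.76% and 5.06% of all genes tested in Podo: Plod2, a lysyl hydroxylase (0.97 ± 0.15), P4ha2, a prolyl 4-hydroxylase (1.24 ± 0.19), and P3h2, a prolyl 3-hydroxylase of basement membrane collagen (0.81 ± 0.13), each with a call that held without any 1 sample. P3h2 was also higher in adult PCT (1.00 ± 0.15) and LOH (1.30 ± 0.12) and lower in adult Endo (-0.96 ± 0.16, lost without the first P0 sample, edgeR adjusted p = 0.0816). Its change differed between Podo and Endo by 1.76 ± 0.21 (edgeR adjusted p = 4.16e-08), which held. Hspg2, which encodes the proteoglycan perlecan, was lower in adult PCT (-1.03 ± 0.13) and lower in adult Podo than in Endo (log2 difference -2.92). Lama5, the laminin chain of the mature glomerular basement membrane, was higher in adult Stroma2 (1.27 ± 0.18), and its change in Podo was 0.06 ± 0.16 (edgeR adjusted p = 0.873). Itga2, a subunit of a collagen receptor, was higher in adult Podo (1.05 ± 0.19), and its change differed between Podo and Endo by 1.59 ± 0.29. That difference held without any 1 sample but did not pass with thinning (1.54, edgeR adjusted p = 0.108).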

How the data were processed

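Nuclei of mouse kidney were profiled by snATAC-seq in 5 samples. Per the methods, the authors aligned reads to mm10 with Cell Ranger ATAC 1.1.0, called peaks with MACS2 within cell types and merged them, and clustered nuclei with SnapATAC and Harmony. The counts are sums of the matrix the authors deposited, which they binarized, with 1 for a nucleus with a fragment in a peak, and did not scale for depth. The methods name no removal of doublets from these nuclei, and none was done here.

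Open calls were summed for each cell type of each sample, if it held 20 nuclei or more, leaving out 2 small clusters (664 nuclei). The sums were tested in R 4.3.3 with edgeR 4.0.16 (TMM scaling, filterByExpr at min.count 10 and min.total.count 15, and the quasi-likelihood test adjusted by Benjamini-Hochberg over all features, at 0.05), with sample as a term between cell types. DESeq2 1.42.0, other filters, scaling, thinning, a replicate block and leaving out each sample were tried. Gene levels cover GENCODE M21 gene bodies and 2 kb upstream. Sums, levels and plots were made in Python 3.11.15 (matplotlib 3.10.9, scipy 1.17.1, pandas 2.3.3, numpy 2.4.6). Tests were tried on simulated data. A sum near the minimum count carries a large counting error. The named peaks were those over annotated starts and up to 6 more per pair with the largest share of open nuclei, similar genes were the 3 with the highest Pearson correlation, and list examples had the smallest adjusted p. Members and lists were chosen with earlier results of these data known. The scRNA-seq and bulk ATAC-seq samples were not used here.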

Additional observations from a re-analysis of the deposited data

Results flagged for a closer look

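For 2 members the stage change in podocytes differed from that in endothelial cells by a test of the difference itself. For Col4a2 the log2 change in Podo minus that in Endo was -0.99 ± 0.22 (edgeR adjusted p = 0.00379), which was lost without either P0 sample (up to 0.221) and with thinning to 1000 open peaks per nucleus (-1.16, 0.0860). For Col4a6 it was 1.65 ± 0.38 (edgeR adjusted p = 0.00444), which was lost without the second P0 sample or the first P56 sample (up to 0.163) and with thinning (1.16, 0.627). No cause was tested.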

How the results depend on the processing

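The P0 group held 2 samples, and the adult group mixed 1 P21 with 2 P56 samples, so leaving out a P0 sample left 1 that was assumed to vary like the rest. Rare clusters such as adult podocytes limit what could be tested. For single genes and named peaks that had passed the test, 1652 values under the alternatives kept direction and call, 307 lost the call, and 1 changed direction: Col4a1 in Stroma1, at -0.16 with nuclei thinned to 1000 open peaks. For those that had not passed, 169 of 1729 values changed direction and 61 passed. Of the 61, 2 had also changed direction. The first was Col4a4 in Stroma1 with start peaks only (1.35, from -0.39). The other was the Col4a3 and Col4a4 start in adult PC against PCT with no filter (-0.77, from 0.28). Of the called results, 28 lost the call with DESeq2 and 2 with RLE scaling. The cause was not tested where a count moved, beyond the fewer calls that thinning leaves.

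Stage calls of member peaks, 119 higher in adult and 54 at P0, came to 18 and 8 with thinning, those at P0 to 105 with no filter, and leaving out 1 sample gave 56 to 154 and 26 to 80. Stage calls of genes, 28 and 6, came to 10 and 2 with thinning, those at P0 to 1 with start peaks only, and leaving out 1 sample gave 11 to 29 and 1 to 10. Calls between cell types fell with thinning, at P0 to 4 for Podo against NP, 8 for Podo against Endo, 12 for Endo against Stroma2 and 4 for PC against PCT, and in adult kidney to 1, 4, 3 and 4. In adult kidney, Podo against NP (6) came to 2 with no filter, 3 with at least 50 nuclei and 2 to 4 without 1 sample, and PC against PCT (24) to 62 with no filter, 39 with at least 50 nuclei and 49 with Fisher's exact test over pooled nuclei. Fisher's test gave 39 for Podo against NP at P0 (24) and 61 for Endo against Stroma2 in adult kidney (32). It takes nuclei as replicates and does not scale for depth, so its counts do not measure the spread between samples. The count of genes whose change differed between Podo and Endo (2) came to 0 with thinning and 0 to 2 without 1 sample.

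The cell type first by share at a start peak changed under at least 1 measure, except Podo at the Col4a3 and Col4a4 start at P0. As log2 ratios of the first type to the next, with thinning and in CPM, the Col4a3 and Col4a4 start gave 0.90 and 0.97 for Podo at P0 (0.32 by share) and -1.74 and -0.52 for PST in adult kidney (0.25). The Col4a1 and Col4a2 start gave -0.32 and -0.35 for PST at P0 (0.13) and -0.24 and -0.37 for PCT in adult kidney (0.00), with -0.20 to 0.28 and -0.30 to 0.19 without 1 sample. The Col4a6 start gave -0.72 and -0.01 for NP at P0 (0.04), with -0.51 to -0.39 without 1 sample, and in adult kidney (0.46) -0.05 in CPM, 1.00 with at least 50 nuclei and -0.52 to 1.40 without 1 sample. The Col4a5 start gave -0.28 and -0.26 for PST at P0 (0.10), with -0.53 to 0.27 without 1 sample, and for Podo in adult kidney (0.02) -0.46, 0.17, -1.46 with at least 50 nuclei and -0.04 to 0.06 without 1 sample.

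With the replicate number as a block, stage calls were 114 higher in adult and 52 at P0 for peaks and 25 and 7 for genes, and 90 single results kept and 6 lost the call. The samples share only a number: deviations of same-numbered samples correlated at -0.01 to 0.23 over 13 types (median 0.12). P0 comparisons between cell types without 1 sample have no residual degrees of freedom and were not tested.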
